A study of Mus musculus with 12 samples.

Results

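Ion channel and connexin subunits were described here as the probe sets on the Affymetrix MG_U74Av2 mouse array that carry exactly 1 gene symbol starting with Kcn, Scn and a number, Cacn, Hcn, Clcn, Gja, Gjb or Gjc, leaving out Cacna2d1. The rule itself used gene names and no measured value, but it was chosen with earlier results of these data known. It gave 100 of 12422 probe sets and 77 of 8251 named genes. Potassium, sodium, calcium and chloride channel subunits form the pores, with their helper subunits, that shape the cardiac action potential: sodium and calcium currents depolarise the cell, potassium currents repolarise it, and Hcn channels carry the pacemaker current. Connexins join neighbouring cells into gap junctions, through which the action potential spreads. In diabetic hearts, lengthened repolarisation and altered gap junctions are well-known themes in rodent work.

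All hearts came from male NMRI mice of 10 to 15 weeks. Diabetic trained and diabetic sedentary mice had 1 injection of streptozotocin (180 mg/kg), a toxin of insulin-producing beta cells, while healthy trained and healthy sedentary mice had buffer. Trained mice ran on a treadmill at 21 m/min up an incline of 2.5 degrees for 1 h a day, 5 days a week, and were killed 24 h after the last run. Each of the 4 conditions was sampled after 1, 3 and 5 weeks, with 1 array per condition and week and the RNA of 5 mice pooled on each of the 12 arrays. The p-values below therefore rest on the spread between pools that remains once condition and week are fitted, not on that between animals. The labels name cardiac muscle and no chamber; markers of working cardiomyocytes (8 of 8 tested, summed signals of 20964 to 30561) were high on every array, and the atrial myosin light chains Myl7 and Myl4 were present as well.

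The values are MAS5 signals on a linear scale of arbitrary units, scaled by the authors to a common mean, and levels are not compared between different probe sets; where a gene has several, brighter and dimmer only tell them apart by mean signal. None of 19 control probe sets (bacterial Dap, Lys, Phe, Thr and Trpn, and yeast) had a signal above 13.8 on any array. The Bio and Cre controls were not used for this limit. By this limit, members with a mean signal under 14 could not be told from background. There were 58 such members, and 42 of the 100 members, of 33 genes, had a mean of 14 or more, against 58.2% of all probe sets. A separate filter on low signals, a geometric mean of 11.6 over the 12 arrays, left 42 members of 33 genes for testing: it dropped the calcium channel subunit Cacng1 and kept Kcnma1, whose mean is 13.4. Among the 58 members under 14, 36 were under 14 on every array, and the 22 others reached it on at least 1. They were all 8 sodium channel sets, 14 of 20 voltage-gated potassium sets, 10 of 15 inward rectifier sets, 8 of 13 connexin sets, 7 of 12 calcium sets, 7 of 8 potassium auxiliary sets, 3 of 13 chloride sets and 1 of 3 calcium-activated potassium sets. Some well-known cardiac subunits fell here: Kcnj2 (0.6 to 4.3) and Kcnj12 (7.0 to 11.1), pores of the inward rectifier current that sets the resting potential, Kcnj3 (2.6 to 23.6) and Kcnj5 (1.9 to 14.6), the pair that answers the vagus, and Gjc1 (4.5 to 9.2), connexin 45 of the conduction system. Kcnd3, a pore of the transient outward current, reached 46.6 and 25.6 on the healthy sedentary arrays of weeks 3 and 5 and lay at 2.1 to 15.9 on the other arrays. For these members the signals give no level, and nothing is read from them about presence in the heart.

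The diabetic trained array of week 3 stood apart, over all tested probe sets as well as in this family. Its median signal was 25.4, against 16.6 to 20.4 on the other arrays, and its mean correlation with them was 0.785, against 0.900 to 0.931. It gave the highest of the 12 signals for 22 of the 42 tested members (52.4%), against 28.4% of all 7453 tested probe sets. Relative to the diabetic trained arrays of weeks 1 and 5, the median member was higher on it by 0.83 (log2) and the median of all tested probe sets by -0.03. In healthy trained hearts the same week 3 difference was 0.14 for members and 0.04 for all. The experiment file records that its RNA was labelled a second time after an array of high background, and neither its scan day nor its chip lot was shared with another array. Counts for each comparison, and the members that moved most, are therefore also given without it. For diabetes over both training states, 13 of the 42 signs turned without it.

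**Figure D1:**
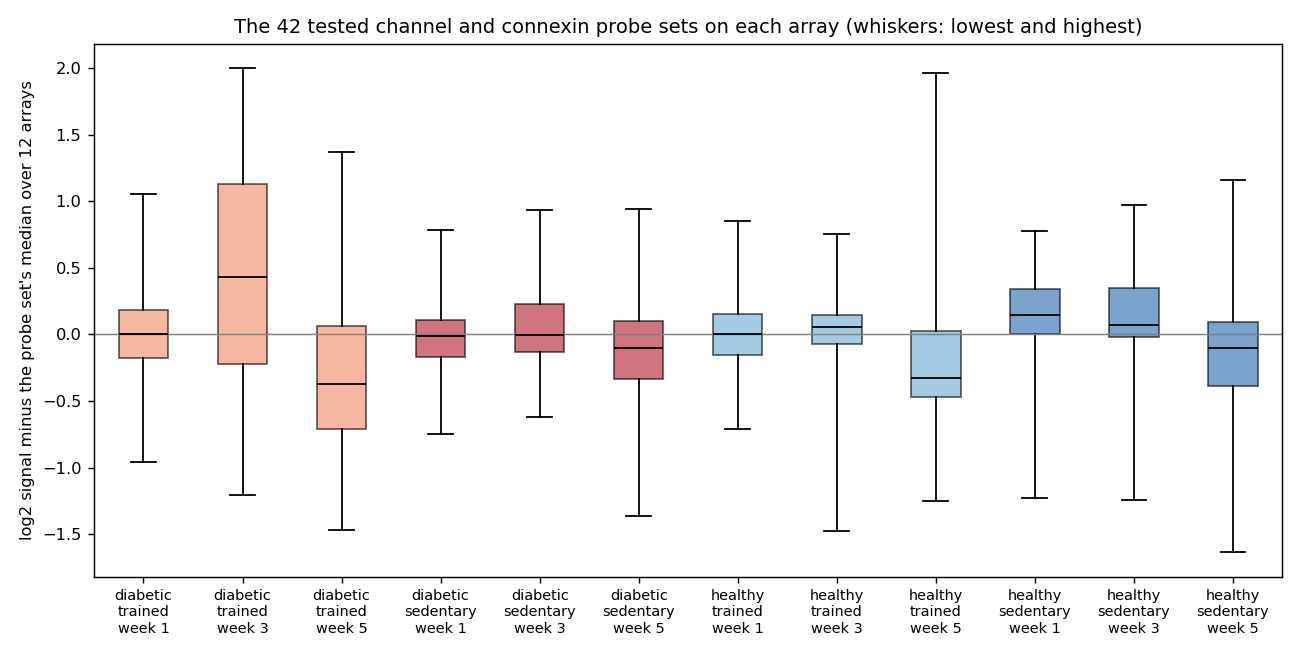
Each box shows, for 1 array, the log2 signals of the 42 tested channel and connexin probe sets minus each set's own median over the 12 arrays; boxes span the quartiles, the line is the median and whiskers reach the lowest and highest value. The diabetic trained array of week 3 has a median of 0.43, above that of every other array.

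The diabetes comparison set the 6 arrays of diabetic hearts against the 6 of healthy hearts, over both training states, and asked whether transcripts of the excitation machinery differ in insulin-deficient hearts. No member passed the test: 0 of 42, with a background of 0.765% of all tested probe sets (limma, Benjamini-Hochberg over 7453 probe sets, threshold 0.05). At an unadjusted p under 0.05 there were 6 of 42 (14.3%), against 11.8% of all tested probe sets. Of these, 2 were higher (background 4.86%) and 4 lower (background 6.92%). The Gja4 set and the dimmer Hcn2 and Clcn7 sets among them passed the filter only through the arrays where they are high. A stricter filter, a geometric mean of 28.2, left 2 of 24 members at an unadjusted p under 0.05. The count for all was then 705 of 4969 probe sets, so the members' share was no longer the larger. The median member differed by 0.02 (log2), and the median of all by -0.02; 25 members were above 0 and 17 below, and 47.8% of all were above 0. Without the diabetic trained array of week 3 the balance turned: the median member was at -0.09 and that of all at -0.02, with 14 members above 0 and 28 below, against 45.6% of all above 0, and 10 members (23.8%, background 15.6%) had an unadjusted p under 0.05. In none of the 42 were the signals of diabetic and healthy arrays free of overlap, which held for 1.01% of all. The members of smallest p were Kcnk3, Gja1, Hcn2 and Clcn7 on the lower side and Gja4 and Kcnj9 on the higher side; their values follow by role.

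Gja1 encodes connexin 43, the main gap junction protein of the ventricle, and Gja4 encodes connexin 37, known from the endothelium of arteries. Promoter sequences (RefSeq GRCm38.p6, 250 bases before to 50 after the gene start) are shown for some members picked from those with the smallest p for diabetes or the largest week difference. Their base composition and motifs can thus be read beside the values. Kcnk3, Clcn7 and Kcnj9, also among the smallest p for diabetes, are not shown. Capitals mark matches to 6 motifs searched on both strands: the GC box GGGCGG, the TATA box TATAAA, the AP-1 site TGANTCA, the cAMP response element TGACGTCA, the forkhead site TGTTTAC and the glucocorticoid response element. They are Gja1 at chr10:56377050-56377349 (plus strand), Gja4 at chr4:127313990-127314289 (minus strand), Hcn2 at chr10:79716384-79716683 (plus strand) and Kcnd2 at chr6:21215096-21215395 (plus strand):
Gja1: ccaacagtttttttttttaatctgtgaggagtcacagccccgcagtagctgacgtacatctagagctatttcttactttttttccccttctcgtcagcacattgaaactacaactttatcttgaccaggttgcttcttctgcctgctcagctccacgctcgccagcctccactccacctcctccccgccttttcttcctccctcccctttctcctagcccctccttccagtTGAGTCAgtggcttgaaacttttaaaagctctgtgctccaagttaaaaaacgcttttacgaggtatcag
Gja4: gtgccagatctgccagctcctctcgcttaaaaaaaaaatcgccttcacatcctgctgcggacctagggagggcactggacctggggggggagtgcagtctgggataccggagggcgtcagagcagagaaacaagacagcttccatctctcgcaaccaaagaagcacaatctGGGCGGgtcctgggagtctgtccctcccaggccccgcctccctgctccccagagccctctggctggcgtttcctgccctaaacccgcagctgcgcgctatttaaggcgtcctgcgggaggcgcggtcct
Hcn2: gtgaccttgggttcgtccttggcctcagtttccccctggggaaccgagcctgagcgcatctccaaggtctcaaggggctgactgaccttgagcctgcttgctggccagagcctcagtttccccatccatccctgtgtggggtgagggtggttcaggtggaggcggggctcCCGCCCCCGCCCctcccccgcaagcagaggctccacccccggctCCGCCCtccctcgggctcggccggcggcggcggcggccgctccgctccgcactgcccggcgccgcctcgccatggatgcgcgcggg
Kcnd2: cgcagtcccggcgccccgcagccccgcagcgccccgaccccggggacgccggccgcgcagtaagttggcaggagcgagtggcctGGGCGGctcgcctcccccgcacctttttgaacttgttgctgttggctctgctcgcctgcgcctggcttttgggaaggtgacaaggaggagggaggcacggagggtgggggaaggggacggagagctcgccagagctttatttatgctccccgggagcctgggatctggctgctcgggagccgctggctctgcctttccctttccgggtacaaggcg

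The GC content was 47.7% for Gja1, 62.0% for Gja4, 72.3% for Hcn2 and 68.7% for Kcnd2, against a median of 52.7% over 32851 promoters. Gja1 held 1 AP-1 match, a motif present in 7.81% of all promoters. Gja4 and Kcnd2 held 1 GC box each and Hcn2 held 3, of which a pair lies side by side; 35.7% of all promoters hold at least 1. None of the 4 held the TATA box (13.6% of all), the cAMP response element (1.79%), the forkhead site (3.65%) or the glucocorticoid response element (0.0091%), in the letters searched. A promoter entry was found for 61 of the 77 member genes.

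Gja1 was lower in diabetic hearts by a small margin without passing the test. On its brighter probe set (a type that can share probes with related sequences) the signals in weeks 1, 3 and 5 were 1080.7, 922.1 and 1508.3 in diabetic trained and 1036.3, 1051.2 and 1250.4 in diabetic sedentary hearts, against 1368.1, 1417.2 and 1788.2 in healthy trained and 1586.1, 1308.6 and 1544.0 in healthy sedentary hearts. Each diabetic pool lay below the healthy pool of its own week and training state, but the diabetic trained pool of week 5 lay above 3 healthy pools of other weeks, so the groups overlap. The mean was 1142 ± 209 in diabetic and 1502 ± 175 in healthy hearts (SD, n = 6 each), a log2 difference of -0.41 (SE 0.10, 95% interval -0.63 to -0.18, limma adjusted p = 0.112). The dimmer Gja1 set differed by -0.27 (SE 0.14), with 5 of 6 matched pools lower in diabetic hearts. Of 8 markers of working cardiomyocytes, the cells that carry connexin 43, none passed and 7 were below 0 (median -0.11, or -0.23 in sedentary hearts alone; the myosin heavy chain Myh6 -0.27). Their summed signal was 20964.1 to 30561.4 in diabetic trained and 22190.2 to 23899.8 in diabetic sedentary hearts, against 23813.4 to 27889.7 in healthy trained and 23996.9 to 30444.2 in healthy sedentary hearts, and their part in the Gja1 values was not tested. In a bulk sample, fewer cells of a type and less RNA per cell cannot be told apart.

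Gja4 was the member with the largest positive difference. Its signals were 20.6, 7.3 and 36.0 in diabetic trained and 20.9, 18.5 and 26.7 in diabetic sedentary hearts, against 8.5, 5.0 and 7.5 in healthy trained and 10.5, 5.9 and 26.7 in healthy sedentary hearts. Of the 6 healthy pools, 5 were under the background limit of 14, and the healthy sedentary pool of week 5 equalled its diabetic counterpart. The mean was 21.7 ± 9.48 in diabetic and 10.7 ± 8.08 in healthy hearts (SD, n = 6 each), with a log2 difference of 1.12 (SE 0.30, interval 0.46 to 1.79, limma adjusted p = 0.130). Without the diabetic trained array of week 3 the difference was 1.30 (SE 0.28) and Gja4 passed (limma adjusted p = 0.0365), as 1 of 42 members against 2.05% of all tested probe sets. The geometric mean was 19.6 in diabetic and 8.99 in healthy hearts, so the set passed the filter of 11.6 only through the diabetic arrays and the size of its difference rests on healthy signals mostly under background. On a log2(signal + 16) scale, which damps low signals, the difference was 0.50. The other connexins tested, Gja5 (connexin 40 of atria and conduction system; 0.28, SE 0.25) and Gjb5 (0.31, SE 0.21), did not pass. Both were highest on the diabetic trained array of week 3, and without it Gja5 differed by 0.02 (SE 0.16) and Gjb5 by 0.16 (SE 0.18).

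Markers of cell types that carry connexin 37 or surround the myocardium moved in part with diabetes. Of 9 endothelial markers tested, none passed higher and 1 lower (Aqp1, a water channel, -1.29), with a median of -0.10. They did not move as a set, with 3 above 0 and 6 below. Their summed signal was 1002.0 to 1654.2 in diabetic trained and 1390.5 to 1469.8 in diabetic sedentary hearts, against 1448.4 to 1896.0 in healthy trained and 1340.9 to 1465.2 in healthy sedentary hearts. The 5 adipocyte markers on the array summed to 250.2 to 385.2 in diabetic trained and 228.9 to 329.4 in diabetic sedentary hearts, against 171.4 to 218.5 in healthy trained and 169.7 to 218.5 in healthy sedentary hearts. None of the 4 adipocyte markers tested passed (median 0.62; Lipe, hormone-sensitive lipase, 0.88). Their part in the connexin values was not tested.

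Hcn2, a pore subunit of the pacemaker current that is also present in ventricle, was lower in diabetic hearts without passing. On its dimmer probe set the signals were 25, 7.8 and 6.7 in diabetic trained and 13, 13.1 and 10.4 in diabetic sedentary hearts, against 32.6, 29.2 and 15.2 in healthy trained and 22.9, 34.7 and 21.4 in healthy sedentary hearts. All 6 matched pools were lower in diabetic hearts, and 5 of the 6 diabetic pools were under 14; the diabetic trained pool of week 1 overlapped the healthy pools. The mean was 12.7 ± 6.59 in diabetic and 26.0 ± 7.44 in healthy hearts (SD, n = 6 each), a log2 difference of -1.12 (SE 0.29, interval -1.75 to -0.49, limma adjusted p = 0.112), or -0.56 on the log2(signal + 16) scale. The geometric mean was 11.5 in diabetic and 25 in healthy hearts, so this set passed the filter only through the healthy arrays. It passed only when the diabetic trained array of week 1 was left out (-1.39, limma adjusted p = 0.0265), among the alternatives run. The brighter Hcn2 set differed by -0.24 (SE 0.17), with signals of 274.9, 477.1 and 141.7 in diabetic trained and 214.9, 217.8 and 190.6 in diabetic sedentary hearts, against 308.7, 263.6 and 177.9 in healthy trained and 313.2, 469.4 and 208.6 in healthy sedentary hearts. Its highest diabetic value came from the array that stood apart; without that array the difference was -0.39 (SE 0.14, limma adjusted p = 0.212). The atrial markers Myl7 (-0.45) and Myl4 (-0.52), of the chamber that holds most pacemaker tissue, were also lower without passing, while Nppa, the atrial natriuretic peptide, was at 0.35; the summed signal of the 4 atrial markers was 2093.4 to 3326.7 in diabetic trained and 2468.0 to 3608.9 in diabetic sedentary hearts, against 2845.4 to 3856.5 in healthy trained and 2683.7 to 4530.1 in healthy sedentary hearts. Their part in the Hcn2 values was not tested.

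Kcnk3 encodes TASK-1, a two-pore channel that leaks potassium and helps repolarise the myocyte. Its signals were 45.6, 41.3 and 36.3 in diabetic trained and 53.5, 59.5 and 60.2 in diabetic sedentary hearts, against 62.7, 83.9 and 47.3 in healthy trained and 75.2, 98.2 and 70.5 in healthy sedentary hearts. The order of the conditions was the same in weeks 1 and 3, with diabetic trained hearts lowest and healthy sedentary hearts highest; in week 5 the healthy trained pool was below the diabetic sedentary pool. The mean was 49.4 ± 9.87 in diabetic and 73.0 ± 17.5 in healthy hearts (SD, n = 6 each), a log2 difference of -0.55 (SE 0.14, interval -0.86 to -0.24, limma adjusted p = 0.111), lower in 6 of 6 matched pools. Without the diabetic trained array of week 3, Kcnk3 differed by -0.49 (limma adjusted p = 0.0814) and Gja1 on its brighter set by -0.36 (adjusted p = 0.0560). The other two-pore sets tested lay between -0.30 and 0.50, and none passed.

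The voltage-gated potassium channels, which carry the main repolarising currents, did not pass. Kcna5, the pore of the ultrarapid delayed rectifier, differed by 0.39 (SE 0.20) with 6 of 6 matched pools higher in diabetic hearts, and Kcnh2, the pore of the rapid delayed rectifier, by -0.21 (SE 0.12) with 6 of 6 lower. Kcnd2, a pore of the transient outward current, differed by -0.39 (SE 0.28). The 2 sets of Kcnq1, the pore of the slow delayed rectifier, gave 0.03 (SE 0.15) and 0.06 (SE 0.18), and its partner Kcne1 gave 0.01 (SE 0.22). Without the diabetic trained array of week 3 the Kcnq1 sets gave -0.05 and -0.10, and Kcne1 0.11. On all 12 arrays those 3 intervals lie within -0.46 and 0.48, so changes beyond that on the log2 scale fall outside them.

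Among inward rectifiers, the subunits of the ATP-sensitive channel, Kcnj11 (-0.08, SE 0.22) and Kcnj8 (0.19, SE 0.14), did not pass. Kcnj9, a G protein-gated subunit best known from neurons, had signals of 25.3, 65.7 and 9.9 in diabetic trained and 27.4, 24.8 and 21.3 in diabetic sedentary hearts, against 16, 19.2 and 15.8 in healthy trained and 10.4, 22.2 and 6.5 in healthy sedentary hearts on its dimmer set. The diabetic sedentary pools were each above their healthy sedentary counterparts, while the diabetic trained pools ranged on both sides of the healthy ones. The difference was 0.84 (SE 0.31, limma adjusted p = 0.311), and 0.59 (SE 0.27) without the diabetic trained array of week 3; the brighter Kcnj9 set gave 0.20 (SE 0.20), and 0.08 without that array.

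Calcium channel subunits gave no call. Cacna1c, the L-type pore of the ventricle, differed by -0.15 (SE 0.12), its partner Cacnb2 by -0.07 (SE 0.14), and Cacna1s, the L-type pore of skeletal muscle, by 0.41 (SE 0.20). Cacna1s was highest on the diabetic trained array of week 3 (55.6, against 20.5 to 31.4 on the other diabetic arrays). The summed signal of 8 skeletal muscle markers was also highest on that array, at 594.1 against 160.5 to 297.2 elsewhere. Only 4 of the 8 passed the filter on low signals. Among these, Pvalb had a mean signal of 151.85 and the others 19.3 to 34.8. The sum is thus weighted towards Pvalb and does not show that all 8 were higher there. Without that array Cacna1s differed by 0.24 (SE 0.15), Cacna1c by -0.08 and Cacnb2 by -0.16. The part of the skeletal muscle markers in the Cacna1s value was not tested.

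Among the chloride channels and transporters of the Clcn family, which act at the surface (Clcn2) or in endosomes and lysosomes (Clcn3 to Clcn7), 0 of 10 sets passed. Clcn7, the lysosomal exchanger, differed between its 2 sets. On the dimmer one the signals were 15.3, 13.2 and 11.4 in diabetic trained and 9.7, 10.3 and 5.6 in diabetic sedentary hearts, against 15.5, 15.3 and 14.7 in healthy trained and 24.8, 18.7 and 14.2 in healthy sedentary hearts, a difference of -0.69 (SE 0.23, limma adjusted p = 0.251). All 6 matched pools were lower, but every diabetic signal except that of the diabetic trained pool of week 1 was under 14. The geometric mean of 10.4 in diabetic hearts was under the filter. The brighter set gave 0.01 (SE 0.18), and -0.16 (SE 0.13) without the diabetic trained array of week 3. The 4 Clcn3 sets ranged from -0.24 to 0.35 and differed in sign, and the calcium-activated potassium sets of Kcnn1, Kcnn4 and Kcnma1 gave 0.12, 0.09 and 0.04. Without that array the signs of these 3 turned, to -0.11 for Kcnn1, -0.25 for Kcnn4 and -0.19 for Kcnma1.

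**Figure D2:**
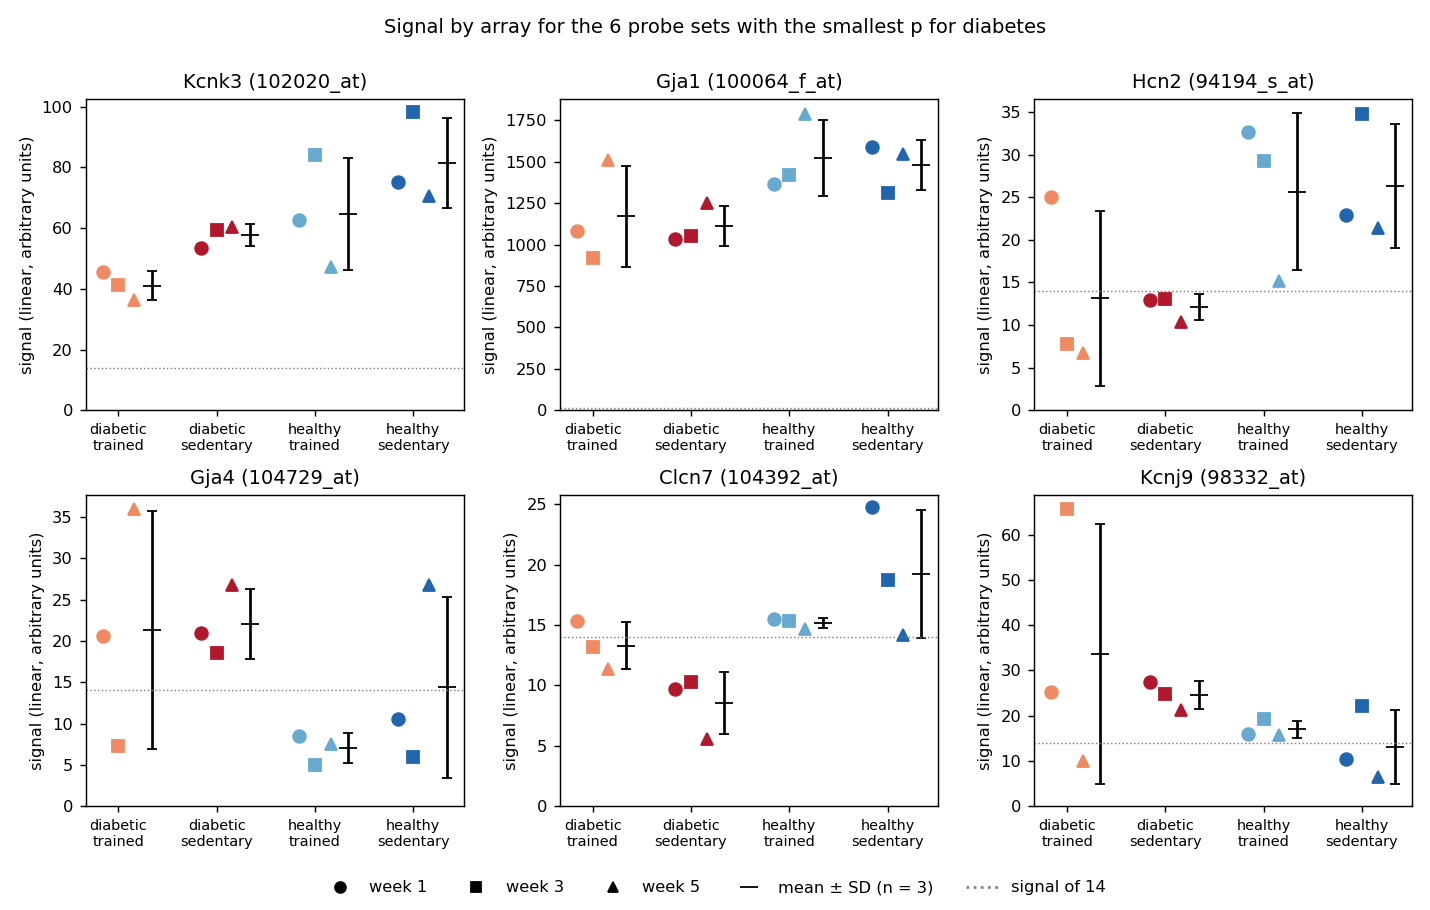
Signal on each array (linear scale from 0, arbitrary units) for the 6 probe sets with the smallest p for diabetes, by condition; symbols mark the week, bars the mean and SD of 3 arrays, and the dotted line a signal of 14. Kcnk3 and Gja1 lie above 14 on every array, while Hcn2, Gja4, Clcn7 and Kcnj9 have arrays below it.

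**Figure D3:**
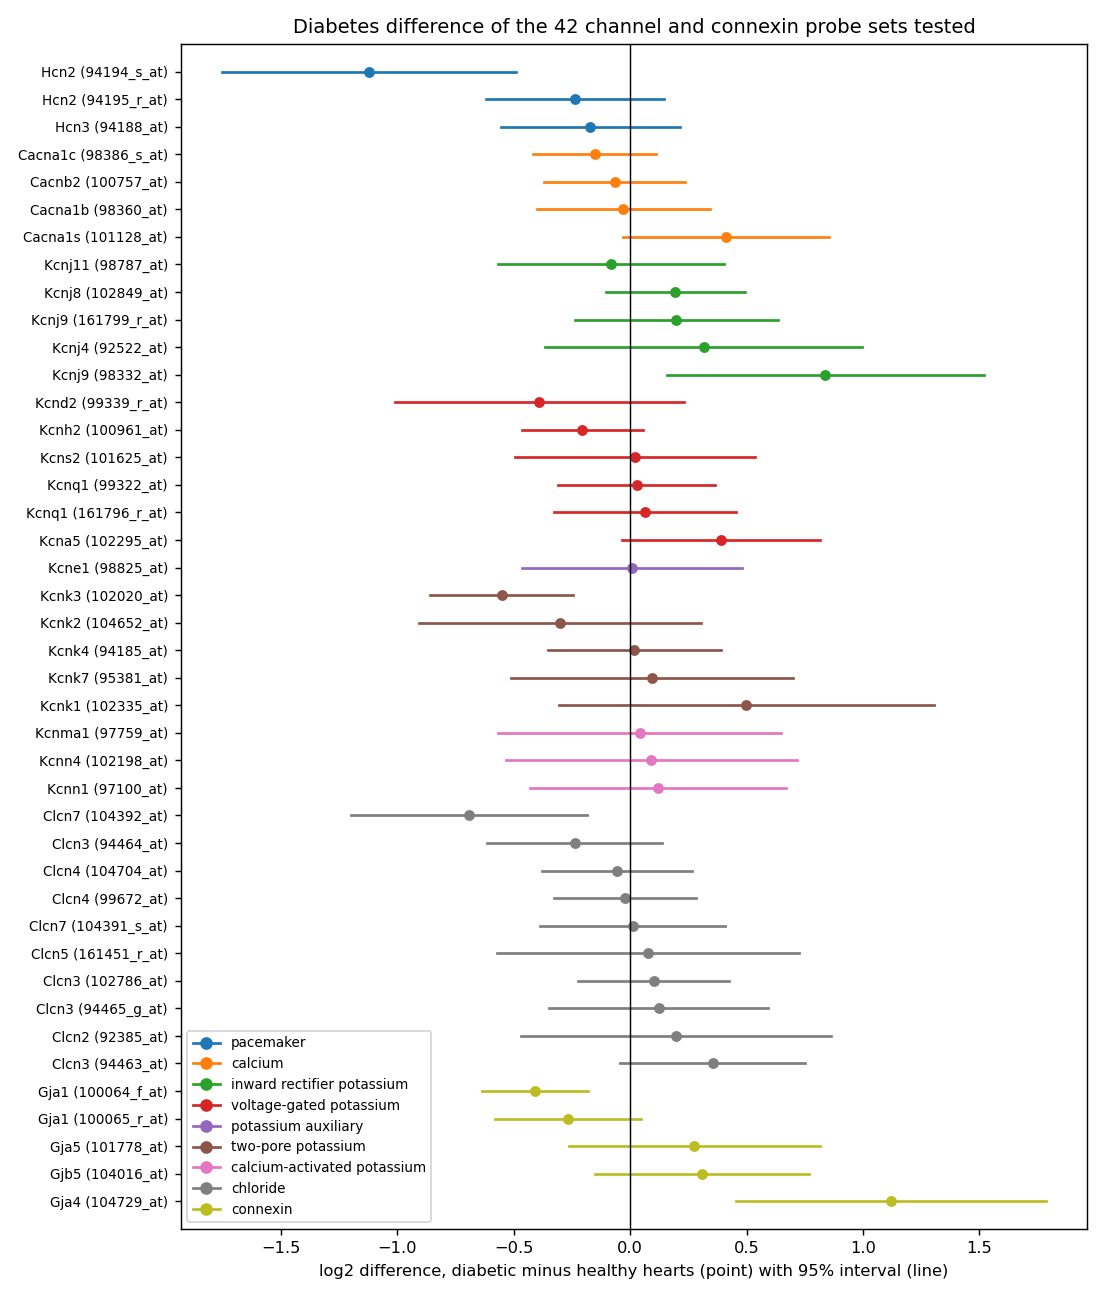
Log2 difference between diabetic and healthy hearts with its 95% interval for each of the 42 tested probe sets, grouped by family. The intervals of 6 probe sets leave out 0, and none of the 42 passed after adjustment.

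Pumps, anchors and regulators that act with the channels did not pass for diabetes either, counted over lists of genes chosen for their known roles. None of 4 pumps and exchangers tested passed (median 0.08; Slc8a1, the sodium-calcium exchanger, 0.31), none of 13 anchoring and intercalated disc genes (median -0.09; desmoglein Dsg2 0.55, ankyrin Ank3 0.42), none of 8 channel regulators (median -0.08; the kinase subunit Prkaca -0.31) and none of 9 transcription factors (median -0.12; Irx3 0.42). The background stays at 0.765% and the median of all tested probe sets at -0.02.

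Split by training state, diabetes gave no member past the threshold. Diabetic sedentary against healthy sedentary hearts gave 0 of 42 (background 0.0537%) and 7 at an unadjusted p under 0.05 (16.7%, background 7.33%); the signals did not overlap for 5 members (11.9%, background 13.8%). These 7 were both sets of Gja1 (-0.41 and -0.56) and of Hcn2 (-1.09 and -0.59), Clcn7 on its dimmer set (-1.19), Kcnk3 (-0.48) and Kcnj9 on its dimmer set (1.09). Gja1 and Hcn2 thus count with both their sets, and the dimmer Hcn2 and Clcn7 sets passed the filter only through the healthy arrays. With the stricter filter there were 4 of 24 members, against 433 of 4969 probe sets. Diabetic trained against healthy trained hearts gave 0 of 42 (background 0.0268%) and 5 unadjusted (background 10.5%): Gja4 (1.36), Kcnk3 (-0.62), Hcn2 (-1.16), Gja1 (-0.40) and Cacna1s (0.64). The Gja4 set and this dimmer Hcn2 set passed the filter only through the arrays where they are high. The stricter filter gave 2 of 24 members, against 583 of 4969 probe sets. With the diabetic trained array of week 3 left out, 4 were unadjusted calls (9.52%, background 8.82%), and 11 of the 42 signs turned; Cacna1s was then at 0.29, Hcn2 at -0.78, Gja4 at 1.71, Kcnk3 at -0.50 and Gja1 at -0.30. Diabetic sedentary against healthy sedentary hearts, whose values do not use that array, had 8 unadjusted (background 13.6%) when the spread was estimated without it. Whether the diabetes difference depends on training was tested directly by the interaction. No member passed (background 0.0%), and none reached an unadjusted p under 0.05, which 4.31% of all did. The smallest p was that of Clcn7 on its dimmer set (0.99, SE 0.46, limma adjusted p = 0.859), whose geometric mean in diabetic hearts was under the filter. Without the diabetic trained array of week 3 it was at 1.04 and then the 1 member at an unadjusted p under 0.05 (background 4.64%).

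Training over both disease states gave 0 of 42 members (background 0.0%), and 2 at an unadjusted p under 0.05 (4.76%, background 3.45%). They were both lower in trained hearts: Kcnk3 by -0.43 (SE 0.14, limma adjusted p = 0.998), with signals of 52.9 ± 17.6 in trained and 69.5 ± 16.1 in sedentary hearts (SD, n = 6 each), and Kcnh2 by -0.28 (SE 0.12, adjusted p = 0.998), with 79.5 ± 19.6 in trained and 94.5 ± 10.7 in sedentary hearts. Kcnk3 was lower in the trained pool in 6 of 6 matched pairs, and Kcnh2 in 5 of 6. Diabetic trained against diabetic sedentary hearts gave 0 of 42 (background 0.0%) and 3 unadjusted (background 7.15%): Kcnk3 (-0.50), Clcn3 on its second brightest set (-0.60) and Cacna1c (-0.38). Without the diabetic trained array of week 3, 18 of the 42 signs turned and 1 member was left at an unadjusted p under 0.05 (2.38%, background 5.09%), Clcn7 on its brighter set (-0.49); Kcnk3 was then at -0.38, Clcn3 at -0.35 and Cacna1c at -0.24. Training over both disease states then had 4 members (9.52%, background 5.61%), with Kcnk3 at -0.37 and Kcnh2 at -0.27. Healthy trained against healthy sedentary hearts gave 0 of 42 (background 0.0%) and none unadjusted (background 2.04%), or 4 (9.52%, background 4.84%) with the spread estimated without that array. These comparisons share arrays with the diabetes comparisons, so the repeated appearance of Kcnk3 is not separate evidence.

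Among the comparisons on all 12 arrays, time alone gave calls. Week 5 against week 1, 4 arrays against 4 with each condition once, asked how the hearts differ at the end of the course. It cannot be told apart from the chip lot and run day, which week 5 did not share with other weeks; the order of weeks is also that of age. Of 42 members 7 passed (16.7%), 3 higher and 4 lower, against 15.4% of all tested probe sets (8.47% higher, 6.9% lower), so the family's share lies near the background. The higher ones were Gja1 on its dimmer set, Clcn4 on its dimmer set and Kcnd2 on its brighter set; the lower ones were Cacna1c, Cacnb2, Kcnh2 and Clcn7 on its brighter set. Members as a whole sat lower: the median difference was -0.45, against -0.10 for all tested probe sets, with 11 of 42 members above 0 (31 below) and 42.2% of all above 0. Damping or dropping dim sets made the median difference smaller. On the log2(signal + 16) scale the median member was at -0.22 and that of all at -0.07. With the stricter filter they were at -0.27 and -0.07. At an unadjusted p under 0.05 there were 19 members (45.2%, background 32.6%), 5 higher (background 15.2%) and 14 lower (background 17.4%). The 8 arrays did not overlap for 18 members (42.9%, background 31.2%). Of these, 13 were lower at week 5 (31.0%, background 16.4%) and 5 higher (11.9%, background 14.9%). Clcn2, Clcn5, Kcnma1, Kcns2 and Clcn7 on its dimmer set passed the filter only through earlier arrays. Their geometric means at week 5 were 8.66 to 11.3. Kcnma1 (12.6 to 18.6 at week 1, 8.0 to 11.3 at week 5) was among the 13 lower. So was Kcns2 (13.2 to 17.5 and 9.7 to 12.6). With the stricter filter, 13 of 24 members had an unadjusted p under 0.05, against 1964 of 4969 probe sets.

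On its dimmer set, Gja1 had signals of 59.6, 97.9 and 210.3 in diabetic trained, 64.2, 83.4 and 117.1 in diabetic sedentary, 60.3, 103.9 and 183.5 in healthy trained and 98.0, 99.2 and 208.2 in healthy sedentary hearts of weeks 1, 3 and 5. Week 5 was above week 3 and week 1 in every condition. The mean was 179.8 ± 43.5 at week 5 and 70.5 ± 18.4 at week 1 (SD, n = 4 each), a log2 difference of 1.34 (SE 0.18, limma adjusted p = 0.00174). The brighter Gja1 set differed by 0.27 (SE 0.13) and did not pass on all 12 arrays, so the size of the Gja1 difference depends on the probe set.

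Clcn4, an endosomal chloride exchanger, had signals of 40.7, 52.1 and 70.9 in diabetic trained, 45.0, 36.2 and 72.9 in diabetic sedentary, 40, 43.2 and 88.7 in healthy trained and 35.5, 47.0 and 76.3 in healthy sedentary hearts on its dimmer set. In all 4 conditions the larger step lay between weeks 3 and 5. The mean was 77.2 ± 7.98 at week 5 and 40.3 ± 3.89 at week 1 (SD, n = 4 each; log2 difference 0.94, SE 0.17, limma adjusted p = 0.00772). The brighter Clcn4 set differed by 0.45 (adjusted p = 0.106).

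Kcnd2 had signals of 7.9, 12.9 and 35.6 in diabetic trained, 11.1, 16.9 and 19.1 in diabetic sedentary, 9.8, 14 and 60.1 in healthy trained and 17.1, 13.6 and 34.3 in healthy sedentary hearts on its brighter set. Of the week 1 signals, 3 of 4 were under the background limit, while all week 5 signals were above it. The mean was 37.3 ± 17.0 at week 5 and 11.5 ± 3.97 at week 1 (SD, n = 4 each; log2 difference 1.64, SE 0.35, limma adjusted p = 0.0124). On the log2(signal + 16) scale the difference was 0.91 (adjusted p = 0.0121). The geometric mean was 34.4 at week 5 and 11 at week 1, so the set passed the filter through the later arrays. Its dimmer set was at 3.9 to 9.8 on all arrays and was not tested.

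The 4 members that passed lower at week 5 had smaller differences. Cacnb2 averaged 49.9 ± 3.37 at week 5 and 73.0 ± 2.94 at week 1 (-0.55, SE 0.17, limma adjusted p = 0.0484), and Cacna1c, its pore partner, 190.1 ± 27.9 and 266.6 ± 15.7 (-0.50, SE 0.15, adjusted p = 0.0429). Kcnh2 averaged 70.9 ± 17.5 at week 5 and 98.4 ± 8.38 at week 1 (-0.50, SE 0.15, adjusted p = 0.0414), and Clcn7 on its brighter set 42.9 ± 10.6 and 71.3 ± 5.99 (-0.77, SE 0.22, adjusted p = 0.0396), with n = 4 and SD throughout. Each was lower at week 5 in all 4 conditions, and the weeks did not overlap except for Kcnh2, whose healthy sedentary pool of week 5 (94.6) lay above the diabetic trained pool of week 1 (86.4).

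The lower calls depend on how arrays are scaled. With each array centred on its median, which moves the median of all tested probe sets to 0.07, 3 members passed higher and 0 lower, and the median member was at -0.28; over all tested probe sets the calls were then 659 higher and 135 lower, against 631 and 514. Leaving out arrays moved the count too: 19 members passed once the diabetic trained array of week 3 was dropped (6 higher, 13 lower; background 32.3%), and on leaving out the diabetic trained array of week 5, the healthy trained array of week 1 or that of week 5 there were 2, both higher, with Kcnd2 no longer passing. Of the other arrays, leaving out the diabetic sedentary ones of week 3 or 5 gave 6 or 5, either of the healthy sedentary ones of week 3 and 5 gave 4, and each of the rest gave 3.

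Some partners of the channels passed for week 5 against week 1. Counts here stand against the background of 15.4% of all tested probe sets, 8.47% higher and 6.9% lower, and with lists this short a single gene moves the share widely. Of 4 pumps and exchangers 1 passed, higher (Slc8a1, 0.70), and of 13 anchoring and intercalated disc genes 1 higher (the desmosomal Dsp, 0.55) and 1 lower (Jup, plakoglobin, -1.27). Of 8 channel regulators 2 passed higher, the phosphatase subunits Ppp3ca (1.04) and Ppp2ca (1.07). The mean signal of Ppp2ca was 14.06, at the background limit of 14, and that of Ppp3ca was 76.8. Of 9 transcription factors 3 passed, all lower: Mef2c (-1.44), Rest, the repressor of neuronal and fetal channel genes (-1.45), and Gata4 (-0.59). Markers of other cells differed by week as well: of 9 endothelial markers 2 passed higher and 1 lower, of 5 smooth muscle markers 1 lower (Myh11, -1.03), of 4 adipocyte markers 1 lower (Lipe, -0.92), and of 8 cardiomyocyte markers 1 lower (Mybpc3, -0.57). Their part in the week results was not tested.

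**Figure D4:**
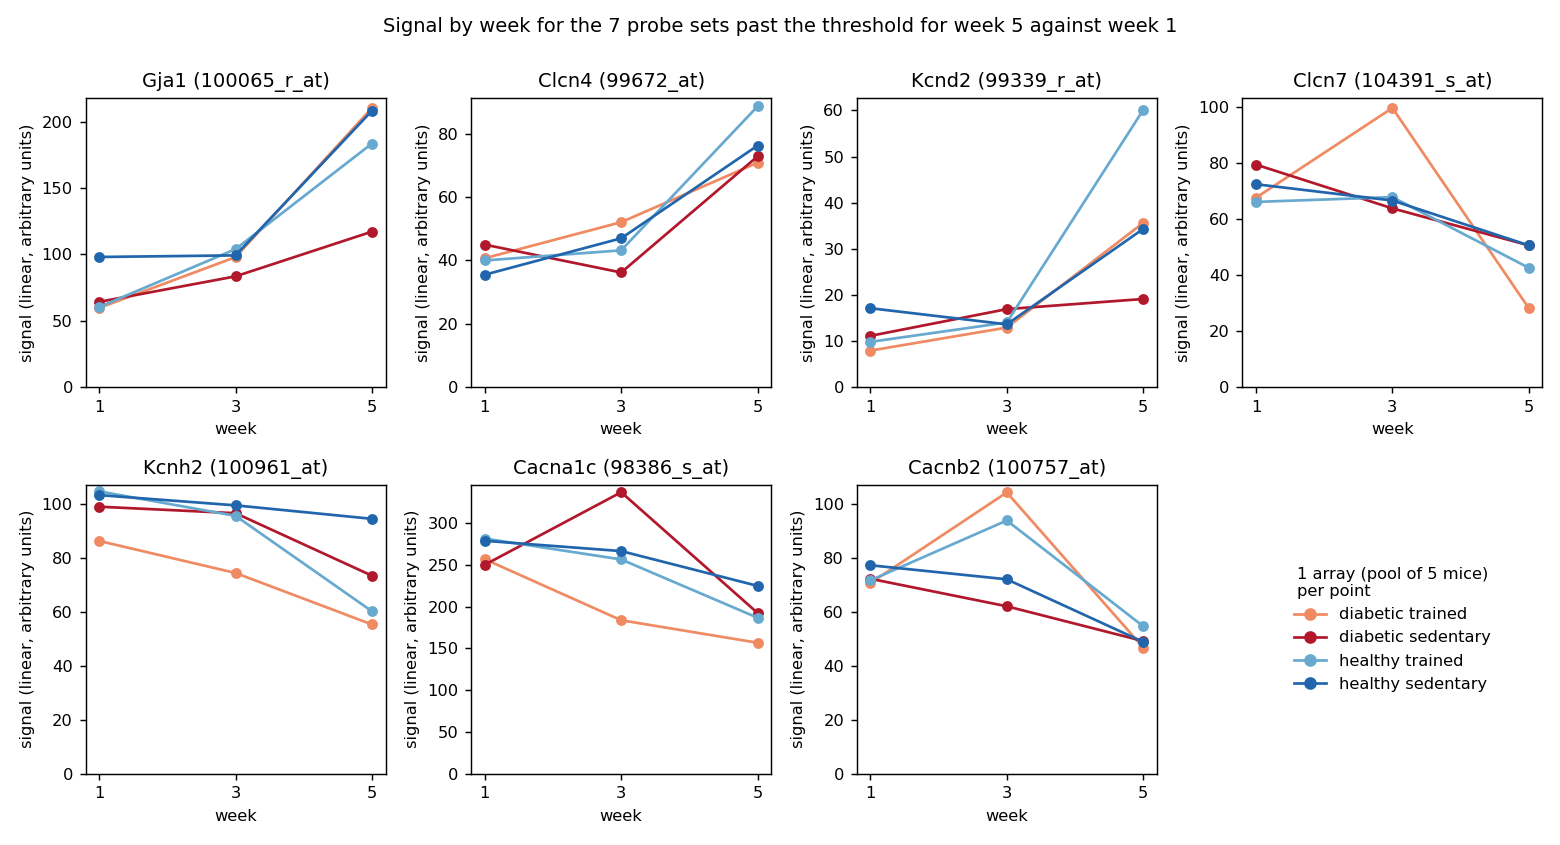
Signal (linear scale from 0, arbitrary units) at weeks 1, 3 and 5 for the 7 probe sets that passed for week 5 against week 1; each point is 1 array of 5 pooled mice, and lines join different mice of the same condition. Gja1, Clcn4 and Kcnd2 are highest at week 5 in all 4 conditions, and the other 4 are lower at week 5 than at week 1 in all 4.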

How the data were processed

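The deposited table holds intensity values, linear probe set signals; per the submitters' processing notes the authors used MAS5, whose version is not given in the sources used here. Probe sets were named through the array annotation and RefSeq GRCm38.p6. The other deposited columns, from the experiment file of each array, gave run day, chip lot, fluidics module and comments per the file headers, and served to find batches. Fluidics module and condition coincide and cannot be told apart.

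Signals were floored at 4.1 (the 20th percentile) before taking log2. Probe sets with a mean log2 signal at or above the 40th percentile (7453 of 12422) were fitted with limma 3.58.1 in R 4.3.3, with condition and week as factors on all 12 arrays, an intensity trend and Benjamini-Hochberg adjustment within a comparison over all 7453; the threshold was 0.05. The fit has 6 residual degrees of freedom, 5 without 1 array, which was then dropped, not imputed. The script was tested on simulated data. No sequencing depth applies; the number of arrays limits the precision.

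Week is the replicate number and served as a block. The series' design text says that sedentary controls were killed at the same time as trained mice, and does not say it of diabetic and healthy mice; per the file headers arrays of a week shared a scan day, except diabetic trained week 3. Deviations of same-week arrays of different conditions correlated at 0.0797 to 0.640 (18 pairs, median 0.272). Members with values were those past the threshold, up to 3 per direction and comparison with the smallest unadjusted p under 0.05 and the same sign in every matched pair, and all members with a mean of 14 or more in lists of cardiac roles. Members, lists and rules were chosen with earlier results of these data known. Members named with a mean under 14, Kcnma1, Kcnj4, Kcnk4, Kcnk7, Kcns2, Cacng1 and the brighter Kcnj9 set are outside that rule and were chosen after their values were seen. Alternatives were array centring, quantile normalization, no or a stricter filter (60th percentile), log2(signal + 16), no week block, no trend, array weights, only the arrays compared, and each array left out.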

Additional observations from a re-analysis of the deposited data

Results flagged for a closer look

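An array was marked where its signal lay far from the nearest other array of its group, relative to the group's whole range (beyond Dixon's 95% critical value). Of 100 groups looked at among the tested members, 18 were marked; chance marks about 1 in 20 groups.

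The diabetic trained array of week 3 accounts for 10 of the 18, each as the highest of the 6 diabetic arrays. The signals there were 125.3 for Kcnn4, 46.9 for Clcn2, 92.7 for Kcnj4, 80.9 for Gja5, 130.2 for Kcnq1 on its brighter set, 50.1 for Gjb5, 55.6 for Cacna1s, 65.7 for Kcnj9 on its dimmer set, 87.2 for Kcnk7 and 94.0 for Kcnn1. Among diabetic arrays, Hcn2 on its dimmer set was also high in diabetic trained hearts at week 1 (25), and Kcna5 in diabetic sedentary hearts at week 3 (80.0).

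Among the 6 healthy arrays, healthy sedentary hearts at week 3 were high for Cacna1s (33.7), Kcnj9 on its brighter set (103.6) and Kcnk4 (53.8). Gja4 was high in healthy sedentary hearts at week 5 (26.7), and Kcnh2 was low in healthy trained hearts at week 5 (60.3). Among the 4 arrays of week 1, Gja1 on its dimmer set was high in healthy sedentary hearts (98.0).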

How the results depend on the processing

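For diabetes over both training states, 0 members passed on all 12 arrays, 2 with array weights (Gja1 on its brighter set and Gja4), and 0 to 1 when arrays were left out (1 without the diabetic trained array of week 1, Hcn2, and 1 without that of week 3, Gja4). For week 5 against week 1, 7 passed, 3 with arrays centred on their medians, 4 with quantile normalization, 4 with no filter on low signals, 3 with no intensity trend, 21 with array weights, and 2 to 19 when arrays were left out; Gja1 on its dimmer set and Clcn4 on its dimmer set passed under all 19 alternatives run for them. The other 6 comparisons gave 0 members under every alternative run. Without the week as a replicate block, 0 members passed for each of the 7 comparisons of conditions, so the block changed no call; at an unadjusted p under 0.05 the count was 5 against 6 for diabetes over both training states and 2 against 7 for diabetic against healthy sedentary hearts. Over all 7453 tested probe sets, diabetes gave 57 calls (28 higher, 29 lower), 8 with arrays centred on their medians (6 higher, 2 lower), 9 with no intensity trend, 10 without the block, 192 with array weights, and 5 to 153 when arrays were left out; with no filter there were 6 of 12422. Of 514 alternative values for 26 pairs of probe set and comparison (15 probe sets), 453 kept direction and side of the threshold, 57 lost the call, 4 gained one and 0 reversed. Most pairs had no call on all 12 arrays and count as kept when they stay without one. All lost calls were of week 5 against week 1. Cacnb2 lost its call in 15 of 19 alternatives, Cacna1c, Kcnh2 and Clcn7 on its brighter set in 13 of 19 each, and Kcnd2 in 3 of 18. Other members, outside those pairs, did turn sign without the diabetic trained array of week 3 (13 of 42 for diabetes). The cause of these shifts was not tested. With 1 pool per condition and week, small differences of dim members are beyond this design.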
